A study of Bos taurus with 23 samples.

Results

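Transcripts of collagen I, collagen III and decorin were followed in bovine umbilical cord mesenchymal cells, as primary cultures and as an immortalized line. The 4 genes were taken by their Ensembl IDs from a table of 16094 gene IDs: COL1A1 (ENSBTAG00000013103), COL1A2 (ENSBTAG00000013472), COL3A1 (ENSBTAG00000021466) and DCN (ENSBTAG00000003505). All 4 passed the filter on low counts and were counted in each of the 23 libraries. Their names came with the IDs when the genes were chosen, since the count table holds no symbols.

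All cells came from Holstein umbilical cord and grew in DMEM of low glucose content that contained fetal bovine serum. Primary cells at 12 days in culture gave 3 libraries, with names that carry the tags BUC and Mix, WJ, or WJ and Male. Primary cells at 50 days gave 3 libraries named WJ and 3 named BUC, each set with the P numbers 10, 15 and 18, and 1 WJ name also carries an F. A line derived from WJ cells through transient transfection with a plasmid for SV40 large T antigen, a viral protein that inactivates p53 and the retinoblastoma protein, gave 9 libraries at 21 days and 5 at 165 days. In the 21-day line replicates 1 to 5 carry the tag AM and replicates 6 to 9 the tag FBS, while all 5 libraries at 165 days carry the tag 2D, so that culture time and tag cannot be told apart there. The labels do not explain the tags, and all 14 libraries of the line stem from the same line. Nor do they say which libraries came from separate animals or cultures, so a p-value here reflects how libraries scatter, part of which may be technical.

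COL1A1 and COL1A2 encode the chains that assemble into collagen I, the main fibrillar collagen of connective tissue, usually as a trimer with more alpha 1 than alpha 2 chains. COL3A1 encodes the chain of collagen III, which often forms fibrils together with collagen I in loose and young connective tissue. DCN encodes decorin, a small leucine-rich proteoglycan that binds collagen I fibrils and limits their growth, and Wharton's jelly, the matrix of the umbilical cord, is built by stromal cells that make these proteins.

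Levels are CPM, a gene's count scaled to the library's total count. Totals were 8954270 to 15486372 at 12 days, 1840606 to 3980920 in the 50-day WJ and 3743953 to 5920394 in the 50-day BUC libraries, and in the line 4141228 to 11382368 at 21 days and 3753231 to 13540302 at 165 days. MARS-Seq counts tags at the 3′ end of poly(A) RNA and no gene lengths were used, so levels are compared between libraries for 1 gene and not between genes. The libraries are bulk RNA, in which fewer cells of a type and less RNA per cell cannot be told apart. Markers of the labelled cell type and of other cell types were not analysed here, because 0 of the 16094 IDs matched a symbol in the reference table.

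Libraries of the line fell into sets that stood apart over 7143 genes other than these 4. In the 21-day line the Pearson correlation of log2 CPM across genes averaged 0.978 among replicates 1, 2, 3, 6 and 8 and 0.973 among replicates 4, 5, 7 and 9, but 0.925 between these sets. In the 165-day line it averaged 0.979 for replicates 1 and 2, 0.994 among replicates 3, 4 and 5, and 0.947 between them. At 21 days each set holds both AM and FBS libraries, and no label gives the split. Because collagen levels differed along the same split, tests between groups that include the line were repeated without each set in turn. The sets were taken from these data, so p-values of the repeats show only how far a result rested on a set.

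COL1A1 was highest in the 50-day primary cells. At 12 days the libraries held 7384 to 7635 CPM, with a mean of 7518 ± 127 CPM (SD, n = 3). At 50 days the WJ libraries held 18501, 23012 and 25683 CPM at P10, P15 and P18, and the BUC libraries held 19102, 13604 and 20983 CPM. Every 50-day primary library thus lay above every 12-day library, while the WJ and BUC ranges overlapped.

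In the line, COL1A1 ranged from 1711 to 7293 CPM at 21 days, with a median of 2134 CPM (n = 9). At 165 days replicates 1 to 5 held 3874, 3949, 7186, 7127 and 8012 CPM. The 21-day libraries lay below all 12-day libraries, and the 165-day libraries lay below all 50-day primary libraries. Group means ran in the order 50-day WJ (22399 CPM), 50-day BUC (17896 CPM), 12-day primary (7518 CPM), 165-day line (6030 CPM) and 21-day line (3372 CPM), and the first was 6.64 times the last. Among neighbours in that order only BUC at 50 days and the 12-day cells had ranges that did not overlap.

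COL1A2, the partner chain, ran in the same order among primary cells but not in the line. It stood at 2964, 3146 and 3086 CPM in the 12-day replicates. The 50-day WJ libraries held 4935, 5117 and 6435 CPM and the BUC libraries 4358, 4432 and 6663 CPM, again all above the 12-day libraries and overlapping each other.

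The 21-day line held 692 to 1511 CPM of COL1A2 with a median of 1002 CPM (n = 9). The 165-day line held 238, 203, 1335, 1104 and 1169 CPM in replicates 1 to 5. Replicates 1 and 2 at 165 days were therefore the lowest of all 23 libraries, below any 21-day library, and the other 3 lay inside the 21-day range. The step from 12-day primary cells to the 21-day line was the widest between neighbours, a ratio of means of 2.95 with no overlap, and all 14 libraries of the line lay below all 9 primary libraries.

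COL3A1 spanned the widest range of group means among the 4 genes, 35.6 times from its highest group to its lowest. It held 904, 1027 and 1061 CPM at 12 days. The 50-day WJ libraries held 3047, 3579 and 4250 CPM at P10, P15 and P18, and the BUC libraries held 7718, 5202 and 9307 CPM. For COL3A1, unlike COL1A1 and COL1A2, every BUC library lay above every WJ library, with a ratio of means of 2.04.

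In the 21-day line COL3A1 ranged from 50.0 to 647 CPM with a median of 65.9 CPM (n = 9). At 165 days replicates 1 and 2 held 80.6 and 76.7 CPM and replicates 3, 4 and 5 held 602, 445 and 487 CPM. Each library of the line lay below each primary library, and the 2 times in the line overlapped. The SD in the 21-day line was 103% of the mean, against 8.26% in the 12-day cells.

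DCN had another order. At 12 days it stood at 69.1, 77.3 and 63.0 CPM. The 50-day WJ libraries held 274, 272 and 159 CPM at P10, P15 and P18, and the BUC libraries held 740, 581 and 603 CPM, so that the 12-day, WJ and BUC ranges were all apart.

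In the line DCN ranged from 37.4 to 112 CPM at 21 days, with a median of 74.3 CPM (n = 9), and held 26.9, 24.2, 77.3, 118 and 153 CPM in replicates 1 to 5 at 165 days. Both ranges overlapped that of the 12-day primary cells. The 3 lowest groups had almost equal means of 79.8 CPM (165-day line), 70.9 CPM (21-day line) and 69.8 CPM (12-day primary), and the BUC mean of 641 CPM was 9.18 times the lowest.

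**Figure D1:**
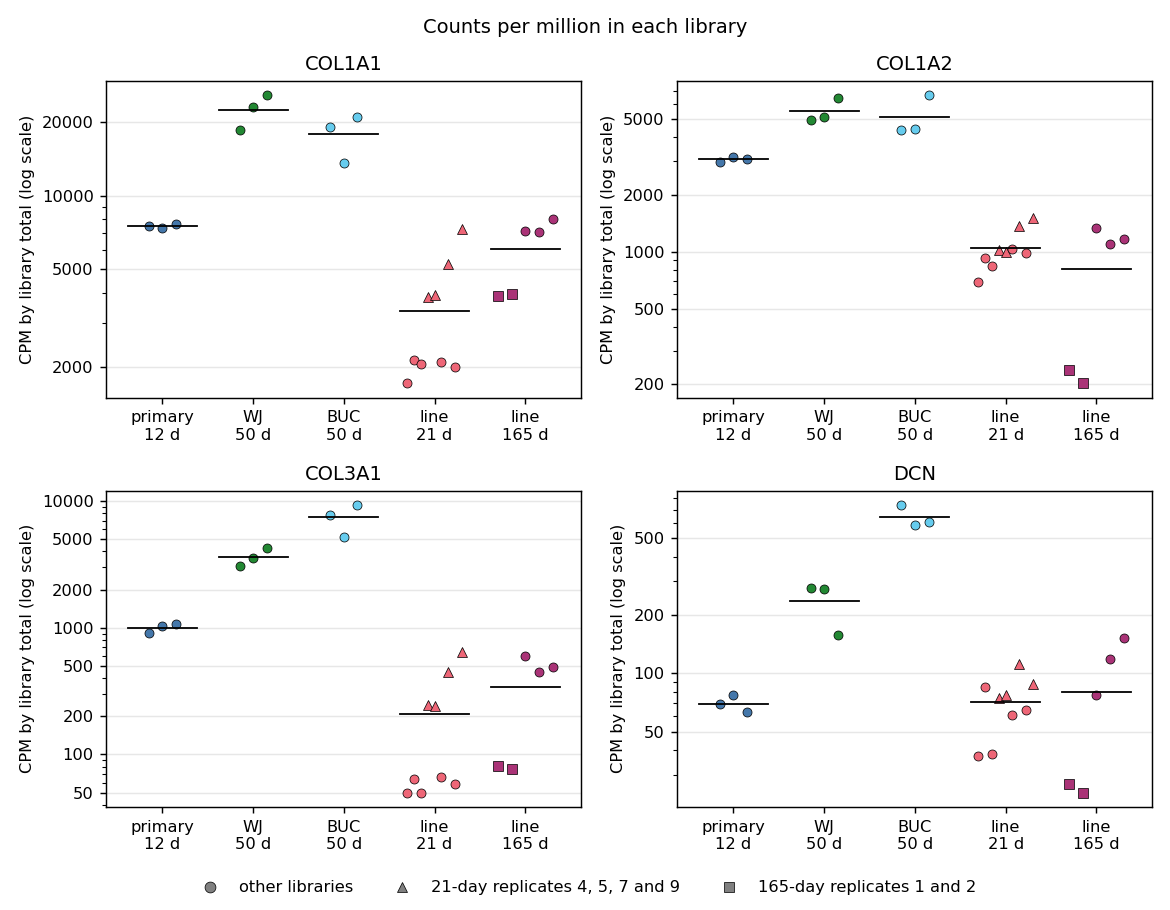
CPM by library total on a log axis for COL1A1, COL1A2, COL3A1 and DCN in each of the 23 libraries, by group, with each group's mean as a bar; triangles mark replicates 4, 5, 7 and 9 at 21 days and squares replicates 1 and 2 at 165 days. The 50-day primary libraries are highest for the 3 collagens, and for COL3A1 the triangles (241 to 647 CPM) stand above the other 21-day libraries (50.0 to 65.9 CPM).

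The 3 collagen chains together made up 1.16% ± 0.0190 of all counts at 12 days (SD, n = 3), 3.15% ± 0.494 in the WJ libraries (SD, n = 3) and 3.05% ± 0.689 in the BUC libraries at 50 days (SD, n = 3). They made up 0.462% ± 0.235 in the 21-day line (SD, n = 9) and 0.718% ± 0.273 in the 165-day line (SD, n = 5). Each of the 14 libraries of the line, with 0.245% to 0.967%, thus gave a smaller share to these collagens than the 12-day primary cells did.

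Changes were tested with edgeR's quasi-likelihood test over 11489 genes, with TMM scaling (which sets aside the most extreme genes when libraries are made comparable). A gene passed at a Benjamini-Hochberg adjusted p under 0.05. These log2 fold changes can differ from ratios of the CPM above. Scaling by library totals in place of TMM moved the median log2 fold change of all genes from -0.04 to 0.33 for the 21-day line over 12-day cells, from 0.11 to 0.24 for the 165-day line over WJ, and from -0.01 to -0.33 between the times in the line. In primary cells it moved it from -0.12 to -0.20 for WJ over 12 days and from -0.11 to -0.26 for BUC over 12 days.

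The first comparison set the line at 21 days against primary cells at 12 days, the earliest time of each. Days in culture differ too, so line and culture time cannot be told apart. COL1A1, COL1A2 and COL3A1 were lower in the line and DCN did not pass the test. Thus 3 of 4 genes were lower, where 29.7% of all genes tested were lower. The median log2 difference of the 4 genes was -1.73, beside -0.04 over all genes.

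COL1A1 was 2.91-fold lower in the 21-day line (log2 fold change -1.54, SE 0.31, edgeR adjusted p = 0.000214). COL1A2 was 3.81-fold lower (-1.93, SE 0.33, edgeR adjusted p = 4.64e-05). COL3A1 was 6.29-fold lower (-2.65, SE 0.61, edgeR adjusted p = 0.00095). All 9 libraries of the line lay below all 3 primary libraries for each of these collagens.

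The size of the difference depended on which libraries of the line entered. With replicates 1, 2, 3, 6 and 8 alone COL3A1 stood at -4.36 on the log2 scale, and with replicates 4, 5, 7 and 9 alone at -1.64. For COL1A1 these values were -2.17 and -0.87, and for COL1A2 they were -2.03 and -1.63. All 6 values passed the edgeR test, with adjusted p of 0.0132 at most.

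DCN showed a log2 difference of -0.35 (SE 0.36, edgeR adjusted p = 0.433), with a 95% interval from -1.10 to 0.40. Falls and rises both lay within it, and all 3 primary libraries lay inside the range of the line. The sign was not fixed, since scaling by library totals gave 0.03, as did replicates 4, 5, 7 and 9 alone.

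The second comparison set the line at 165 days against WJ cells at 50 days, the later time of each. Here too line and culture time cannot be told apart. All 4 genes were lower in the line, where 29.3% of all genes tested were lower. Their median log2 fold change was -2.48 beside 0.11 over all genes. COL3A1 was 12.0-fold lower (-3.59, SE 0.75, edgeR adjusted p = 0.000267) and COL1A2 7.63-fold lower (-2.93, SE 0.39, edgeR adjusted p = 1.31e-06). COL1A1 was 4.11-fold lower (-2.04, SE 0.35, edgeR adjusted p = 3.32e-05).

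DCN was 3.26-fold lower in the 165-day line than in the 50-day WJ cells (-1.70, SE 0.40, edgeR adjusted p = 0.000798). All 5 libraries of the line, at 24.2 to 153 CPM, lay below all 3 WJ libraries, at 159 to 274 CPM, although the highest and the lowest nearly touched. Without 165-day replicates 1 and 2 the 4 differences were smaller and still passed the edgeR test (adjusted p of 0.00318 at most). They were -1.77 for COL1A1, -2.38 for COL1A2, -3.01 for COL3A1 and -1.20 for DCN. With replicates 1 and 2 as the only 165-day libraries they were larger, at -2.72 for COL1A1, -4.84 for COL1A2, -5.73 for COL3A1 and -3.39 for DCN, and all passed.

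Time in primary culture was compared separately for WJ and BUC cells, each against the same 12-day libraries. In WJ cells 2 of the 4 genes passed the test, both higher, where 14.5% of all genes tested were higher. COL1A1 rose 3.16-fold (log2 fold change 1.66, SE 0.41, edgeR adjusted p = 0.00305) and DCN rose 3.57-fold (1.83, SE 0.47, edgeR adjusted p = 0.00366).

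COL1A2 and COL3A1 stood at 0.93 (SE 0.45, edgeR adjusted p = 0.112) and 1.95 (SE 0.85, edgeR adjusted p = 0.081) in the WJ cells, although all their 50-day libraries lay above all 12-day libraries. These standard errors pool the spread of all 5 groups, the widely spread line included. For calls in comparisons with the line, fits of the compared groups alone mostly gave larger adjusted p, and every call held. In an edgeR fit of the 6 libraries of these groups alone, all 4 genes were higher, where 26.5% of the 9930 genes tested were. COL1A2 stood there at 1.05 (SE 0.12, adjusted p = 5.48e-05) and COL3A1 at 2.07 (SE 0.14, adjusted p = 1.68e-06).

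In BUC cells 3 of the 4 genes rose from 12 to 50 days, where 21% of all genes tested were higher. DCN rose 10.1-fold (3.34, SE 0.49, edgeR adjusted p = 6.28e-06), COL3A1 8.25-fold (3.04, SE 0.89, edgeR adjusted p = 0.00705) and COL1A1 2.64-fold (1.40, SE 0.41, edgeR adjusted p = 0.00701). COL1A2 stood at 0.90 (SE 0.45, edgeR adjusted p = 0.1), with a 95% interval from -0.02 to 1.83. The edgeR fit of these 2 groups alone found all 4 higher, COL1A2 at 1.02 (SE 0.18, adjusted p = 0.000897), where 31.3% of 10166 genes were.

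The 12-day libraries mix both names, since 1 carries the tag BUC and 2 carry WJ. With the 2 WJ libraries alone as the 12-day group, the rise in WJ cells was 1.66 for COL1A1 and 1.83 for DCN, and both passed the edgeR test. The 3 libraries differed little in these genes, with SDs of 1.68% (COL1A1), 3.03% (COL1A2), 8.26% (COL3A1) and 10.3% (DCN) of the mean.

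Between the 50-day primary cells, DCN was lower in WJ than in BUC, and the other 3 genes did not pass the test. Thus 1 of 4 genes was lower, where 10.7% of all genes tested were. DCN was 2.84-fold lower in WJ (log2 fold change -1.51, SE 0.46, edgeR adjusted p = 0.0223). The call was lost without BUC replicate 1, at -1.43 (adjusted p = 0.0591), and without WJ replicate 6, at -1.30 (adjusted p = 0.105).

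COL3A1 stood at -1.10 in WJ over BUC (SE 0.83, edgeR adjusted p = 0.411), with a 95% interval from -2.82 to 0.63, although the 2 sets of 3 libraries did not overlap. The edgeR fit of these 6 libraries alone gave -1.08 (SE 0.23, adjusted p = 0.00799) and called COL3A1 and DCN lower, where 13.6% of 9075 genes were. COL1A1 stood at 0.26 (95% interval -0.57 to 1.09) and COL1A2 at 0.02 (95% interval -0.89 to 0.94), and neither passed the edgeR test (adjusted p = 0.729 and 0.99).

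Within the line, the 165-day libraries were compared with the 21-day ones. COL1A1 alone of the 4 passed the test and was higher at 165 days, where 29.9% of all genes tested were. It rose 2.24-fold (log2 fold change 1.16, SE 0.27, edgeR adjusted p = 0.000709). Against 21-day replicates 4, 5, 7 and 9 alone the difference was 0.47 (edgeR adjusted p = 0.0799), against the FBS libraries alone it was 0.75 (edgeR adjusted p = 0.0567), and against replicates 1, 2, 3, 6 and 8 alone it was 1.78 (edgeR adjusted p = 7.3e-08). With replicates 1 and 2 as the only 165-day libraries it was 0.48 (edgeR adjusted p = 0.319).

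COL1A2 stood at -0.07 between the times in the line (95% interval -0.70 to 0.55, edgeR adjusted p = 0.851) and DCN at 0.48 (95% interval -0.15 to 1.11, edgeR adjusted p = 0.183). COL3A1 stood at 1.01 (95% interval -0.13 to 2.15, edgeR adjusted p = 0.119). Without replicates 1 and 2 of the 165-day line all 3 passed the edgeR test as higher, COL1A2 at 0.48 (adjusted p = 0.0212), COL3A1 at 1.59 (adjusted p = 0.0223) and DCN at 0.98 (adjusted p = 0.00159). With replicates 1 and 2 alone at 165 days COL1A2 (-1.98, edgeR adjusted p = 2.96e-06) and DCN (-1.21, edgeR adjusted p = 0.00373) passed as lower, and COL3A1 stood at -1.14 (edgeR adjusted p = 0.262). For COL1A2 and DCN the direction of the time effect in the line thus depended on the 165-day set. Replicates 1 and 2 were the lowest 165-day libraries for all 3 genes, so a shift on choosing a set was built in. The p-values of these subsets are therefore not support for a change over time.

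COL3A1 in the line also turned on the 21-day set. Against replicates 1, 2, 3, 6 and 8 alone it was higher at 165 days by 2.73 (edgeR adjusted p = 1.56e-05), and against replicates 4, 5, 7 and 9 alone it stood at -0.01. It passed without 21-day replicate 9 as well, at 1.45, and DCN passed without either replicate 1 (0.69) or replicate 2 (0.69) of the 165-day line.

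The gap between line and primary cells at the later time was set against that at the earlier time. This equals the time effect in the line (21 to 165 days) minus that in WJ cells (12 to 50 days), over spans of unlike length. No member passed this test, where 24% of all genes tested were higher and 20.5% were lower. DCN came nearest with -1.36 (SE 0.55, 95% interval -2.50 to -0.21, edgeR adjusted p = 0.0507), and was the 1 gene of 4 with an unadjusted p under 0.05. DESeq2, limma voom, library totals and RLE factors each put DCN past the threshold, at -1.58 to -1.48. Leaving out 1 library did so in 5 cases, at -1.56 without WJ replicate 6, -1.54 and -1.72 without 165-day replicate 4 or 5, and -1.43 and -1.45 without 21-day replicate 1 or 3.

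COL1A2 stood at -1.002 in this difference (95% interval -2.12 to 0.11, edgeR adjusted p = 0.137), COL3A1 at -0.94 (95% interval -3.02 to 1.15, edgeR adjusted p = 0.477) and COL1A1 at -0.50 (95% interval -1.51 to 0.51, edgeR adjusted p = 0.43). With replicates 4, 5, 7 and 9 as the 21-day group COL1A1 (-1.29), COL3A1 (-2.06) and DCN (-1.84) passed the edgeR test. With replicates 1, 2, 3, 6 and 8 none did, and COL1A1 (0.02) and COL3A1 (0.68) had the other sign. With replicates 1 and 2 alone at 165 days COL1A2 (-3.001), COL3A1 (-3.18) and DCN (-3.13) passed the edgeR test.

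Within the 21-day line AM and FBS libraries were compared over 10597 genes. None of the 4 genes passed the edgeR test, nor did any with DESeq2 or voom, where 0.368% of genes were higher and 0.0566% lower in AM. The smallest unadjusted p was that of COL1A2, 0.0123, at a log2 difference of -0.45 (SE 0.15, edgeR adjusted p = 0.347). COL1A1 stood at -0.60 (95% interval -1.49 to 0.29), COL3A1 at -1.21 (95% interval -2.92 to 0.51) and DCN at -0.38 (95% interval -0.99 to 0.23). Without FBS replicate 9 the values of COL1A1 and COL3A1 were -0.18 and -0.51. Within replicates 4, 5, 7 and 9 COL3A1 stood at -1.15 (edgeR adjusted p = 0.00609), where 2.05% of genes were lower in AM. Only replicates 4 and 5 (248 and 241 CPM) are AM there, and only 7 and 9 (447 and 647 CPM) are FBS. With all 21-day libraries COL3A1 had an edgeR adjusted p of 0.685. Within replicates 1, 2, 3, 6 and 8 it stood at -0.20 (edgeR adjusted p = 0.356), where 6.26% were.

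**Figure D2:**
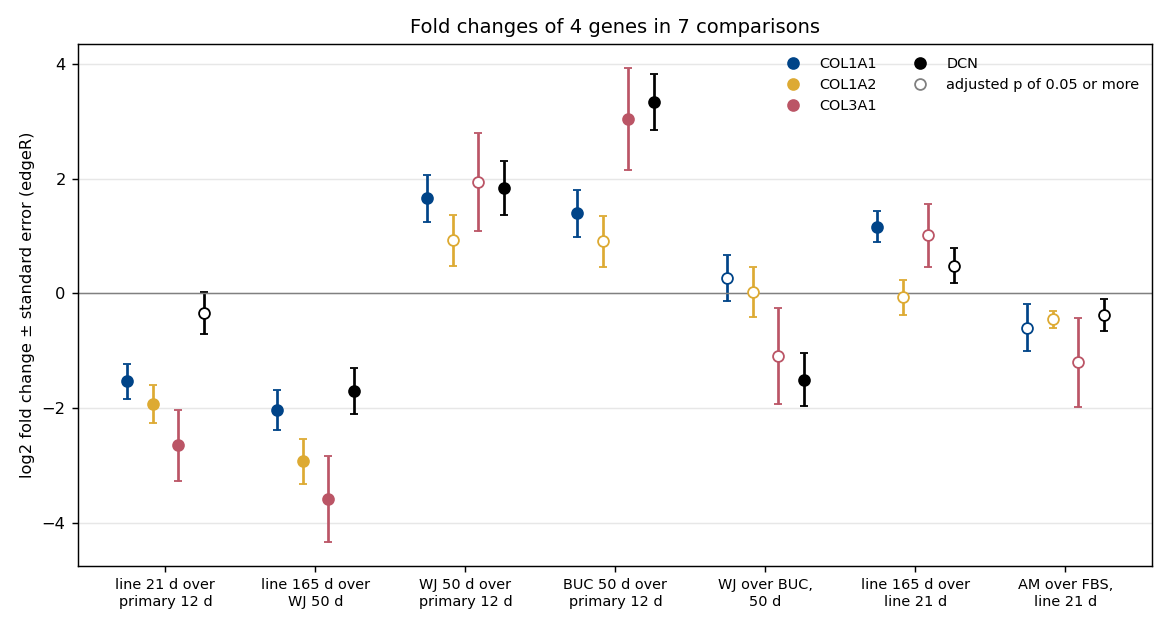
Log2 fold change of each gene in each comparison, with bars of ± its standard error from edgeR. Comparisons between groups used the fit of all 23 libraries, and AM over FBS used a separate fit of the libraries with these tags. Filled points passed an adjusted p of 0.05 and open points did not. All 4 genes lie below 0 for the 165-day line over 50-day WJ cells, from -3.59 (COL3A1) to -1.70 (DCN).

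The proportions of these transcripts to each other were taken within each library, where scaling cancels. Because 3′ tag yield differs between genes, such a ratio is compared between groups and not read as a number of molecules. Differences in log2 ratio were tested with two-sided exact permutation tests, 15 tests adjusted together.

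The ratio of COL1A2 to COL1A1, the chains of collagen I, was 0.408 ± 0.0167 at 12 days (SD, n = 3), 0.247 ± 0.0225 in WJ (SD, n = 3) and 0.290 ± 0.0541 in BUC cells at 50 days (SD, n = 3). It was 0.358 ± 0.112 in the 21-day line (SD, n = 9) and 0.120 ± 0.0599 in the 165-day line (SD, n = 5). Every 165-day library, at 0.0514 to 0.186, lay below every 21-day library, at 0.207 to 0.497.

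From 21 to 165 days in the line this ratio fell by 1.69 on the log2 scale, or 3.23-fold (exact permutation p = 0.0005, the smallest this design allows; adjusted p = 0.00749). It thus fell while COL1A2 itself did not pass the test between these times. In primary cells it also fell, by 0.62 on the log2 scale from 12 to 50 days (WJ and BUC together, exact permutation p = 0.0119, the smallest possible; adjusted p = 0.0357). That call was lost whichever of the 9 libraries was left out, at -0.68 to -0.57. This loss was fixed by group size, since even the smallest p then possible does not pass after adjustment. The 165-day line stood at -1.22 against the 50-day WJ cells with no overlap (exact permutation p = 0.0714, adjusted p = 0.134). Without replicates 1 and 2 at 165 days that difference was -0.61, and without replicates 3, 4 and 5 it was -2.13 (exact permutation p = 0.1 for each, the smallest possible).

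The ratio also differed along the sets within the line. At 21 days it was 0.404 to 0.497 in replicates 1, 2, 3, 6 and 8 and 0.207 to 0.263 in replicates 4, 5, 7 and 9. At 165 days it was 0.0514 to 0.0615 in replicates 1 and 2 and 0.146 to 0.186 in replicates 3, 4 and 5. These 4 ranges did not overlap, so each 165-day set lay below each 21-day set. With 1 set left out the log2 difference was -2.60 to -1.08. Without 165-day replicates 3, 4 and 5 it could not pass, as its p was the smallest possible (adjusted p = 0.0545, exact permutation test). Without 21-day replicates 1, 2, 3, 6 and 8 it did not pass after adjustment (adjusted p = 0.0595, exact permutation test).

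COL3A1 to COL1A1 was 0.133 ± 0.0110 at 12 days (SD, n = 3), 0.162 ± 0.00554 in WJ (SD, n = 3) and 0.410 ± 0.0310 in BUC cells at 50 days (SD, n = 3). In the line it was 0.0493 ± 0.0257 at 21 days (SD, n = 9) and 0.0495 ± 0.0283 at 165 days (SD, n = 5). At 21 days the line was 3.03-fold lower than the 12-day cells (log2 difference -1.60, exact permutation p = 0.00455, the smallest possible; adjusted p = 0.0187), and no library overlapped. The log2 difference was -2.20 with 21-day replicates 1, 2, 3, 6 and 8 alone (adjusted p = 0.0536, exact permutation test). With replicates 4, 5, 7 and 9 alone it was -0.84 (adjusted p = 0.0714, exact permutation test). Both p were the smallest these group sizes allow, so neither could have passed.

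Against WJ at 50 days the 165-day line stood at -1.95 for this ratio with no overlap (exact permutation p = 0.0536, adjusted p = 0.115), at -1.25 without 165-day replicates 1 and 2 and at -3.01 without replicates 3, 4 and 5. WJ stood at -1.34 against BUC, also with no overlap, where 3 libraries against 3 cannot give an exact permutation p below 0.1 (adjusted p = 0.15). Between 21 and 165 days in the line the log2 difference was -0.06 (exact permutation p = 0.916), and it ran from -1.12 to 0.64 with 1 set left out. At both times the sets were apart, at 0.0244 to 0.0314 against 0.0614 to 0.0887 at 21 days and at 0.0194 to 0.0208 against 0.0607 to 0.0838 at 165 days.

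DCN to COL1A1 was higher in the 21-day line, at 0.0238 ± 0.00843 (SD, n = 9), than in the 12-day cells, at 0.00930 ± 0.00111 (SD, n = 3). The difference was 2.43-fold, or 1.28 on the log2 scale, with no overlap (exact permutation p = 0.00455, the smallest possible; adjusted p = 0.0187). It was 1.56 with 21-day replicates 1, 2, 3, 6 and 8 alone (adjusted p = 0.0536, exact permutation test). With replicates 4, 5, 7 and 9 alone it was 0.93 (adjusted p = 0.122, exact permutation test). Neither could have passed at these group sizes, and the first p was the smallest possible. The ratio fell 2.09-fold to 0.0119 ± 0.00574 (SD, n = 5) in the 165-day line (exact permutation p = 0.005, adjusted p = 0.0187), with ranges that overlapped. This fall no longer passed without replicate 1 (-0.91) or replicate 2 (-0.86) of the 165-day line, nor without both (-0.58). Nor did it pass without 165-day replicates 3, 4 and 5 (-1.79), where too few libraries remained for any result to pass. Without 21-day replicates 1, 2, 3, 6 and 8 (-0.71) it did not pass either.

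In the 50-day cells DCN to COL1A1 was 0.0109 ± 0.00439 in WJ (SD, n = 3) and 0.0367 ± 0.00718 in BUC (SD, n = 3), apart by -1.82 on the log2 scale (exact permutation p = 0.1, adjusted p = 0.15). The 165-day line and the 50-day WJ cells differed by 0.07 (exact permutation p = 0.839), and by 0.55 without 165-day replicates 1 and 2 or -0.65 without replicates 3, 4 and 5.

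**Figure D3:**
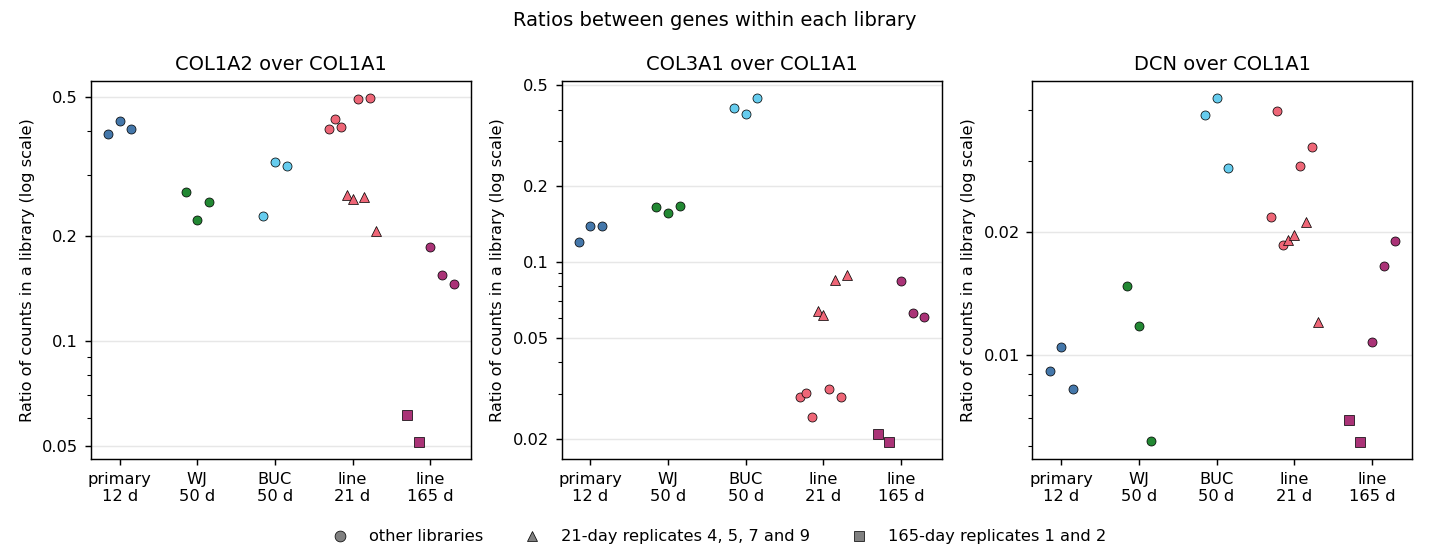
Ratio of COL1A2, COL3A1 and DCN to COL1A1 within each of the 23 libraries on a log axis, by group. Triangles mark replicates 4, 5, 7 and 9 at 21 days and squares replicates 1 and 2 at 165 days. For COL1A2 the 165-day libraries (0.0514 to 0.186) lie below all 21-day libraries (0.207 to 0.497).

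Across the 23 libraries the 4 genes were also placed by likeness of pattern, as the Pearson correlation of log2 CPM among 7146 genes. The points share their group, scaling and sequencing, so the values describe these libraries only. COL3A1 ranked 3 among all genes by likeness to COL1A1, with r = 0.964 (n = 23), and COL1A1 ranked 3 for COL3A1. COL1A2 stood farther from its partner chain, at rank 202 for COL1A1 with r = 0.829 (n = 23), and had r = 0.909 with COL3A1.

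For DCN the nearest of the other members was COL3A1, at rank 16 with r = 0.89 (n = 23), ahead of COL1A2 at rank 97 and COL1A1 at rank 130. The gene most like COL1A1 was ENSBTAG00000014835 (r = 0.981, n = 23), at 10285 ± 1378 CPM in WJ cells at 50 days (SD, n = 3) and 990 ± 605 CPM in the 21-day line (SD, n = 9). The gene most like COL1A2 was ENSBTAG00000018588 (r = 0.984, n = 23), at 902 ± 50.6 CPM in WJ cells at 50 days (SD, n = 3) and 304 ± 121 CPM in the 165-day line (SD, n = 5).

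**Figure D4:**
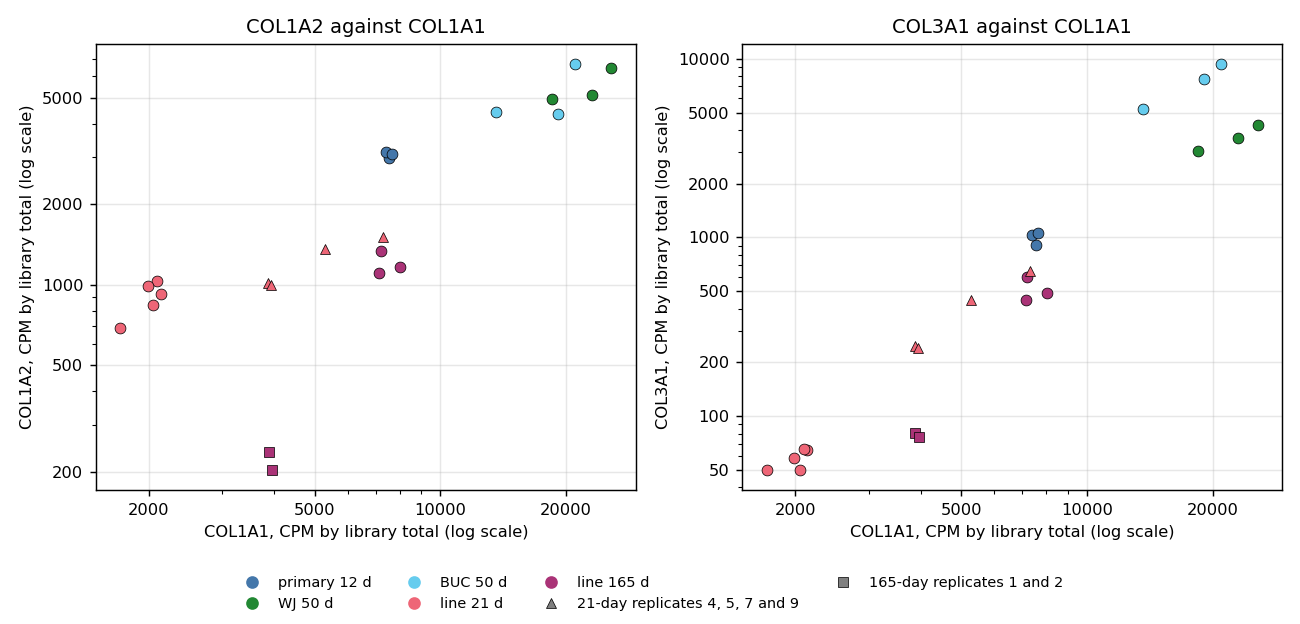
COL1A2 (left) and COL3A1 (right) against COL1A1 in CPM on log axes, 1 point for each of the 23 libraries, coloured by group; triangles mark replicates 4, 5, 7 and 9 at 21 days and squares replicates 1 and 2 at 165 days. At COL1A1 levels of 3874 and 3949 CPM, replicates 1 and 2 of the 165-day line hold 238 and 203 CPM of COL1A2, whereas 21-day replicates 4 and 5, at 3867 and 3930 CPM of COL1A1, hold 1016 and 1002 CPM.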

How the data were processed

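RNA of 23 libraries was profiled by bulk MARS-Seq. The submitters' processing notes name the build ARS-UCD1.2 and the tools STAR, cutadapt, DESeq and HTSeq. Versions, the annotation and the use of strand and molecular identifiers were not given in the sources used, so counts may not be independent molecules. The deposited table holds raw counts per gene, not normalized, with 97 of 16094 genes at 0 throughout. The members, lists and tests were chosen with earlier results of these data known.

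Groups came from titles and treatment labels. CPM used library totals. One edgeR 4.0.16 fit in R 4.3.3 (glmQLFit and glmQLFTest, TMM, filterByExpr, Benjamini-Hochberg) held all 23 libraries in 5 groups; AM against FBS was fitted in the 21-day libraries. Standard errors came from the F statistic and 95% intervals from its degrees of freedom. Within-library ratios were tested with scipy 1.17.1. The edgeR tests, except that of the difference of time effects, were first run on simulated data, and the ratio tests were not. Each member is named, with the genes most correlated with it at a mean of at least 10 CPM (prior count 2); without symbols 2 such IDs are given. The 14 planned lists of matrix genes and cell type markers were not run for the same reason. Equal replicate numbers did not mark pairs by the check made, except that the check could not decide for AM and FBS. Alternatives were DESeq2 1.42.0, limma 3.58.1 voom, RLE factors, library totals, no filter, fits of the compared groups alone, subsets by tag, leaving out libraries, and a replicate block. No coordinates or sequences were used.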

Additional observations from a re-analysis of the deposited data

Results flagged for a closer look

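DCN differed between the 2 kinds of primary cells in its change over the same 12-day libraries. From 12 to 50 days it rose by 1.83 on the log2 scale in WJ and by 3.34 in BUC cells (edgeR adjusted p = 0.00366 and 6.28e-06), and the difference of these effects was -1.51 (edgeR adjusted p = 0.0223). Both effects share their 12-day libraries, so this is the difference between the 50-day cells, and all 3 WJ libraries (159 to 274 CPM) lay below all 3 BUC libraries (581 to 740 CPM).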

How the results depend on the processing

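The lower level of the 3 collagens in the 21-day line and of all 4 genes in the 165-day line passed the edgeR test under every alternative run. Of 632 recomputed fold changes of the 4 genes 578 kept direction and call, as did 129 of 171 ratios. Leaving out 21-day replicates 1, 2, 3, 6 and 8 together, or 165-day replicates 3, 4 and 5 together, was added after the data were seen. The other alternatives were planned with earlier results of these data known. The other sets of libraries left out together were also taken from these data. Small groups limit the ratio tests, because leaving out 1 library raises the smallest p they allow, and unknown gene names limit the description to these 4 genes. Where a value moved, the cause was not tested.

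Fits of the compared groups alone gave 1.05 (COL1A2) and 2.07 (COL3A1) for WJ over time, 1.02 (COL1A2) for BUC over time and -1.08 (COL3A1) for WJ over BUC. For the 165-day line over WJ their edgeR adjusted p was 3.81e-05 (COL1A1), 0.000833 (COL1A2), 0.000463 (COL3A1) and 0.0115 (DCN). For the 21-day line over 12 days it was 0.00375 (COL1A1), 0.00554 (COL3A1) and, smaller than in the main fit, 8.72e-07 (COL1A2). For time in the line it was 0.00606 (COL1A1). For the difference of time effects DCN passed at -1.48 (RLE and DESeq2), -1.58 (library totals), -1.53 (voom), -1.75 (FBS libraries only) and -1.84 (without 21-day replicates 1, 2, 3, 6 and 8). The same omission gave 0.029 for DCN in the 21-day line over 12 days, and library totals gave 0.027. It gave 0.47 (COL1A1) and -0.013 (COL3A1) for time in the line, -1.29 (COL1A1) and -2.06 (COL3A1) for the difference of time effects and -1.15 (COL3A1) for AM over FBS. Without 21-day replicates 4, 5, 7 and 9 time in the line gave 0.031 (COL1A2) and 2.73 (COL3A1), and the difference of time effects gave 0.020 (COL1A1) and 0.68 (COL3A1). Without 165-day replicates 1 and 2 time in the line gave 0.48 (COL1A2), 1.59 (COL3A1) and 0.98 (DCN). Without 165-day replicates 3, 4 and 5 it gave 0.48 (COL1A1), -1.98 (COL1A2), -1.14 (COL3A1) and -1.21 (DCN), and the difference of time effects gave -3.001 (COL1A2), -3.18 (COL3A1) and -3.13 (DCN). With AM libraries only, time in the line gave 0.045 (COL1A2) and 1.56 (COL3A1), and with FBS libraries only 0.75 (COL1A1). TMM-scaled CPM moved 5 of 20 group levels by over 1 SD, to 8182 (COL1A1), 3335 (COL1A2) and 1085 (COL3A1) at 12 days, 6347 (COL1A2) in WJ and 770 (DCN) in BUC.

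Leaving out each library in turn gave -0.12 to 0.29 (COL1A2) and -1.64 to -1.30 (DCN) for WJ over BUC. For time in the line it gave -0.31 to 0.17 (COL1A2), 0.72 to 1.45 (COL3A1) and 0.12 to 0.69 (DCN), and for the difference of time effects -1.72 to -1.14 (DCN).

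Log2 ratios under the same omissions were -0.68 to -0.57 for COL1A2 to COL1A1 over time in primary cells, where the call was lost whichever of the 9 libraries was left out. For COL3A1 to COL1A1 they were -1.73 to -1.49 for the 21-day line over 12 days, lost on leaving out any one 12-day library or 21-day replicate 1, 2, 6 or 8, and -0.31 to 0.21 for time in the line. For DCN to COL1A1 they were 1.18 to 1.40 for the 21-day line over 12 days, lost on leaving out any one 12-day library. They were -0.30 to 0.33 for the 165-day line over WJ, and -1.27 to -0.86 for time in the line. The losses over time in primary cells, and on leaving out a 12-day library, were fixed by group size. Even the smallest p possible there did not pass after adjustment. Without 21-day replicates 4, 5, 7 and 9 the 21-day line over 12 days gave 0.13 (COL1A2), -2.20 (COL3A1) and 1.56 (DCN), and time in the line gave 0.54 (COL3A1). Without 165-day replicates 1 and 2 time in the line gave 0.64 (COL3A1) and -0.58 (DCN). Without 165-day replicates 3, 4 and 5 it gave -2.60 (COL1A2) and -1.79 (DCN), and the 165-day line over WJ gave -0.65 (DCN). Without 21-day replicates 1, 2, 3, 6 and 8 the 21-day line over 12 days gave -0.84 (COL3A1) and 0.93 (DCN), and time in the line gave -1.21 (COL1A2) and -0.71 (DCN).

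A replicate block was fitted although the check of equal numbers did not show that they pair the libraries. Correlations of deviations were -0.138 to 0.126 for the P number of WJ and BUC and -0.558 to 0.548 for AM and FBS numbers. With the block on title numbers COL3A1 in the line passed at 1.77, and the difference of time effects was 0.11 (COL1A1) and 0.16 (COL3A1). With the block on the P number COL3A1 in WJ over BUC passed at -1.05.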
